A study of Mus musculus with 27 samples.

Results

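The genes described here are 100 mouse zinc finger genes named Zfp with a number, measured by RNA sequencing in embryonic stem cells after hydrogen peroxide. They were chosen by symbol and by measured level: Zfp followed by digits, other than Zfp42 and Zfp36, at 3 FPKM or more in all 27 libraries. FPKM scales the fragments of a gene by its transcript length and by the mapped fragments of the library. The tables held 38352 genes, 371 of them with such a symbol. Of these 371, 310 reached 1 FPKM in at least 3 libraries and were tested, 61 were not tested, and 100 met the floor of 3 FPKM everywhere. A gene that fell under 3 FPKM in any library cannot be a member, so the 100 genes stand for the well-expressed share of the family and not for the whole family. The levels that chose them are given as a description, with no test.

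The cells were E14Tg2a, a feeder-independent line of mouse embryonic stem cells, grown on gelatin with serum, leukaemia inhibitory factor (LIF) and the 2 kinase inhibitors known as 2i. Treated cultures received 500 µM hydrogen peroxide for 30 min and then medium conditioned by untreated cells. Treated cells were collected at 0.5 h, directly after the exposure, and at 2, 4, 6, 8, 10 and 24 h. Untreated cells were collected at 0 h and 24 h, giving 9 groups of 3 libraries from 3 independent time courses. Untreated cells at 0 h served as the control up to 10 h, and untreated cells at 24 h as the control of the 24 h group. All groups share the line, the substrate and the growth factors. No group received conditioned medium without peroxide, so the effects of peroxide and of the medium change cannot be told apart from 2 h on. In bulk RNA, fewer cells of a type and less RNA per cell cannot be told apart.

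Most genes named Zfp encode C2H2 zinc finger proteins, in which short finger modules held by a zinc ion read DNA bases and, in some members, RNA. Many also carry a KRAB domain, which recruits Trim28 (KAP1) and through it the histone methyltransferase Setdb1. In embryonic stem cells this machinery is known for silencing retroelements and for keeping DNA methylation at imprinted loci. Members without KRAB include regulators of pluripotency and proteins that act on RNA, ribosomes or ubiquitin.

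Embryonic stem cell markers were present in every group: 10 of 10 were above 0, and their summed level ranged from 2442 to 4467 FPKM. Summed hepatocyte markers ranged from 3.69 to 9.23 FPKM in untreated cells at 0 h, from 53.5 to 77.3 FPKM at 0.5 h, from 3.95 to 54.3 FPKM at 6 h, from 4.45 to 71.7 FPKM at 8 h and from 49.9 to 67.1 FPKM in untreated cells at 24 h. The 3 astrocyte markers summed to 0.09 to 0.28 FPKM in untreated cells at 0 h and 4.45 to 4.97 FPKM in untreated cells at 24 h. After peroxide they summed to 4.16 to 4.99 FPKM at 0.5 h, 0.27 to 4.34 FPKM at 2 h and 0.16 to 0.36 FPKM at 4 h. The later sums were 0.31 to 6.76 FPKM at 6 h, 5.35 to 6.91 FPKM at 8 h, 0.34 to 5.34 FPKM at 10 h and 0.19 to 4.47 FPKM at 24 h. Their part in the results below was not tested. Several libraries stood apart. In untreated 0 h replicate 3 the median log2 difference of the members from the other pair of libraries of its group was -0.596, and in peroxide 2 h replicate 1 the median difference from that same pair was -0.533. Both libraries also had higher ribosomal protein transcripts, by 0.897 and 0.798 log2 units, and a rise of signal with transcript GC content of 0.373 and 0.335 log2 units per 10 percentage points. Peroxide 8 h replicate 3 and 10 h replicate 3 showed the same trend to a lesser degree, at 0.196 and 0.208. The 3 libraries at 4 h had GC slopes from 0.137 to 0.214, and their part in the falls at that time was not tested beyond the corrected values given below. Counts and changes of members that rest on these libraries are in many cases given with and without them. Genes that are not members, the counts of the function lists and those of related families are given with all libraries only.

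**Figure D1:**
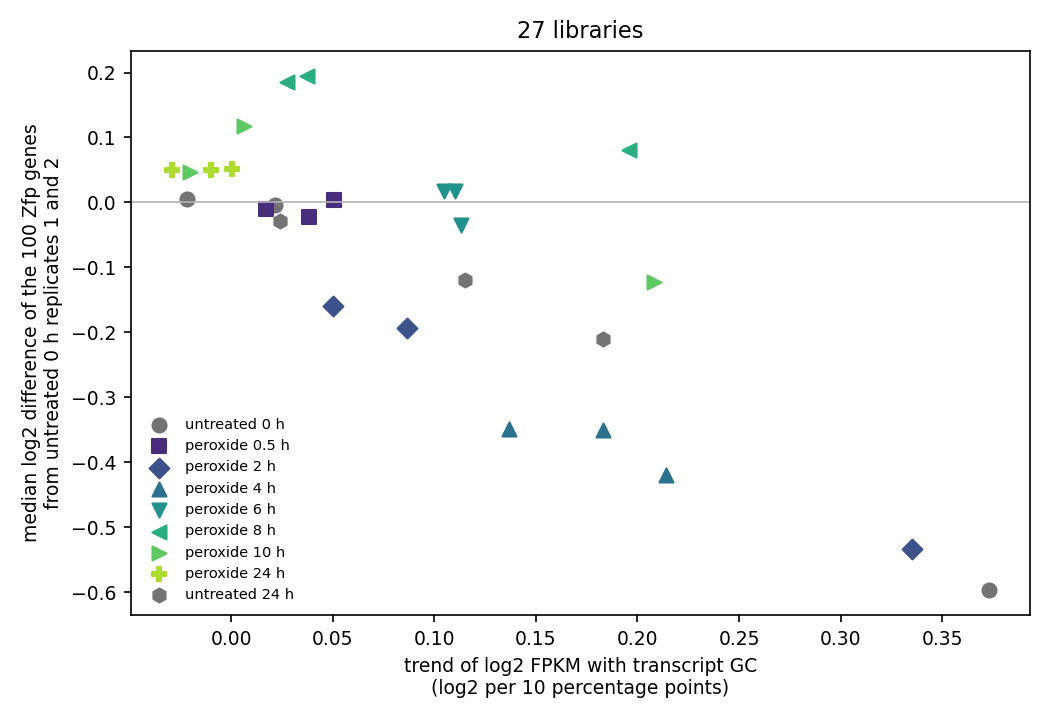
Library trends: each point is 1 library, with its GC slope (log2 units per 10 percentage points of transcript GC content) on the horizontal axis and its median member difference from untreated 0 h replicates 1 and 2 (log2 units) on the vertical axis. Untreated 0 h replicate 3 and peroxide 2 h replicate 1 sit at the far right, at slopes of 0.373 and 0.335, with member medians of -0.596 and -0.533.

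By sequence the members fall into 3 sets. Of the 100 genes, 99 had a coding sequence, and the exception was Zfp264, annotated as a transcribed pseudogene. A KRAB motif match was found in 49 of the 99 proteins and none in 50, and 97 held at least 1 finger match. The median was 9 fingers, from 0 in Zfp365 and Zfp330 to 27 in Zfp646, extremes named after their values were seen. Among all genes above the same floor that had a coding sequence, 3.37% held a finger match. Of the 49 genes with a KRAB match, 15 lay side by side on chromosome 4 (GRCm38, chr4:145510759-147809788), and this run of neighbours was set apart after its values had been seen. The other sets are the 34 remaining genes with a KRAB match and the 50 without. Chromosome 7 held 22 members in all, chromosome 4 held 16, chromosome 17 held 8 and chromosome 8 held 7.

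The chromosome 4 genes resemble each other in sequence, which bears on how their reads can be assigned. In the median cluster gene, 72.6% of all 50-base stretches of the transcript also occurred in transcripts of another gene, from 15.7% in Zfp985 to 93.1%. The median was 1.43% for the other genes with a KRAB match and 0 for those without. Reads from such stretches can be split between copies, so values of single cluster genes are uncertain, least so for Zfp985, Zfp979 (24.6%) and Zfp990 (26.98%). Cluster transcripts were also poor in G and C, with a median of 36.0%, against 41.1% in the other KRAB set, 51.1% in the set without a KRAB match and 50.6% over all genes above the floor. The heptamer TATTTAT, an AU-rich word, occurred in the 3′ untranslated region of 9 of 15 cluster genes, 3 of 34 other genes with a KRAB match and 12 of 50 without. Over all genes above the floor that had a coding sequence, 23.1% held it. Of the members, 18 overlapped another tested gene, and 7 of these overlaps were on the same strand.

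The promoters of the cluster genes show the resemblance directly. Shown are the promoters of 3 cluster genes that carried the nonamer TATTGGGCG, in capitals, from 250 bases before to 50 after the start in RefSeq (GRCm38.p6), 5′ to 3′ on the gene's strand. Zfp985 lies at chr4:147553027-147553326 on the plus strand, Zfp988 at chr4:147305354-147305653 on the plus strand and Zfp979 at chr4:147642459-147642758 on the minus strand.
Zfp985: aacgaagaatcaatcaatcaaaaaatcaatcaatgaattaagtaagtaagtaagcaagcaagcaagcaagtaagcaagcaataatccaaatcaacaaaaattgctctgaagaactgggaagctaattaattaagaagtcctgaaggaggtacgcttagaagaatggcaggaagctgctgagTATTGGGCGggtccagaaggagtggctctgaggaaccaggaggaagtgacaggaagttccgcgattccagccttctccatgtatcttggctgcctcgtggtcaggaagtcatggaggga
Zfp988: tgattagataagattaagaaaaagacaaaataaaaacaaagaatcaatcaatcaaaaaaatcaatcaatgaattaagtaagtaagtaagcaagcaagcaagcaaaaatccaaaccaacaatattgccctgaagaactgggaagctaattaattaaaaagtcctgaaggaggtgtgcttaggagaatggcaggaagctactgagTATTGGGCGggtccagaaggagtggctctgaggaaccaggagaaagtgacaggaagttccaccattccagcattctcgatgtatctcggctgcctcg
Zfp979: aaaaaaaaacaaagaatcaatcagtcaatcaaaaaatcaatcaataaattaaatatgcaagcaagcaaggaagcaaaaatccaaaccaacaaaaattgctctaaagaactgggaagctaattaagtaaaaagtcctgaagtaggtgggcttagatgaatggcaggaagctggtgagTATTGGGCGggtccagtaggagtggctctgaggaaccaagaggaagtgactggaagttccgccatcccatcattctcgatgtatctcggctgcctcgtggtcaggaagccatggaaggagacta

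Promoters were matched for 79 of the 100 members, 101 in all, since some genes have more than 1. On either strand, TATTGGGCG occurred in 9 of the 11 cluster promoters, in none of the 90 other member promoters and in 0.119% of all 32851 promoters of that length. These 9 promoters were 58.2% to 94.8% identical in pairs, with a median of 74.6%, so they are copies and not independent matches. The word contains the reverse complement of CCAAT, which occurred in 81.8% of cluster promoters, 48.9% of the other member promoters and 37.4% of all promoters. GGGCGG, which can overlap it, occurred in 63.6%, 47.8% and 35.7%. TATAAA occurred in 9.09%, 6.67% and 13.6%. TATTGGGCG was chosen after the sequences had been read, and a match is a description, not a bound site.

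The median member had a mean of 9.84 FPKM over the 27 libraries, and 28 members had a mean above 20 FPKM. Zfp57, which protects methylation at imprinted loci, was highest at 121.8 FPKM. The cluster genes Zfp990, Zfp978 and Zfp979 followed at 69.9, 50.2 and 49.98 FPKM, and Zfp207, a spindle assembly factor, at 49.3 FPKM. Zfp369 had the lowest mean, 3.95 FPKM, and was named after its value was seen. Just inside the floor lay Zfp383, Zfp180 and Zfp938, with lowest libraries of 3.00, 3.06 and 3.10 FPKM. Just outside lay Zfp51, Zfp146 and Zfp277, at 2.81, 2.91 and 2.91 FPKM.

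After peroxide the members moved in opposite directions at different times: many were lower at 4 h, and many were higher at 8 h. Among the 6 times from 0.5 to 10 h, the mean was lowest at 4 h for 49 members and at 2 h for 33, and highest at 8 h for 48. Changes were tested with limma on log2(FPKM + 1) across all 13614 tested genes, and a gene was called at a Benjamini-Hochberg adjusted p below 0.05. That scale understates the changes of low genes. At 0.5 h no member was called, against 0.0147% of all tested genes higher and 0.0661% lower, and 8 members had an unadjusted p below 0.05. At 2 h no member was higher and 6 were lower, where 0.499% of all tested genes were higher and 0.566% lower. Without untreated 0 h replicate 3 it was 1 higher and 22 lower, against 0.668% and 1.59% of all tested genes. Without untreated 0 h replicate 1 or 2 or 2 h replicate 1 it was 2 lower.

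At 4 h, 11 members were higher and 37 lower, with a median log2 change of -0.21. Over all tested genes 14.2% were higher and 12.1% lower, with a median of 0.01, so the lower share of the members was about 3 times the background. Among the 7037 genes above the same floor the shares were 14.2% and 11.9%. At 6 h, 29 members were higher and 15 lower, against 22.3% and 20% of all tested genes. At 8 h, 45 were higher and 3 lower, against 29.2% and 11.6%, with medians of 0.32 for the members and 0.11 for all tested genes. At 10 h, 22 were higher and 2 lower, against 22.2% and 9.43%, so the higher share was that of the background.

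Untreated 0 h replicate 3 is in the control of all these comparisons. Without it the counts were 9 higher and 55 lower at 4 h, 14 higher and 26 lower at 6 h, 30 higher and 4 lower at 8 h, and 7 higher and 3 lower at 10 h. Of all tested genes, 18.4% were then lower at 4 h, 19.3% higher and 22.5% lower at 6 h, 24% higher at 8 h and 16.6% higher at 10 h. Leaving out 10 h replicate 1 gave 7 higher and 2 lower at 10 h, and leaving out 10 h replicate 2 gave 14 and 1. The direction of the split at 6 h thus turned without that library, while falls at 4 h and rises at 8 h remained the more frequent. With each library corrected for its trends with transcript GC content and length, 15 members were higher and 47 lower at 4 h, 37 higher and 23 lower at 6 h and 50 higher and 6 lower at 8 h. Over all tested genes the corrected shares, higher and lower, were 18.6% and 17.6% at 4 h, 26.2% and 25.9% at 6 h and 33.1% and 15.8% at 8 h. The lower share of the members at 6 h was thus near the background. Under median-of-ratios scaling the count at 8 h was 31 higher and 9 lower, against 19.2% and 20.5% of all tested genes. At 10 h it was 6 higher and 11 lower, against 12.8% and 18.5%. This scaling moved the median of all tested genes at 8 h from 0.11 to -0.04 and at 10 h from 0.11 to -0.05.

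**Figure D2:**
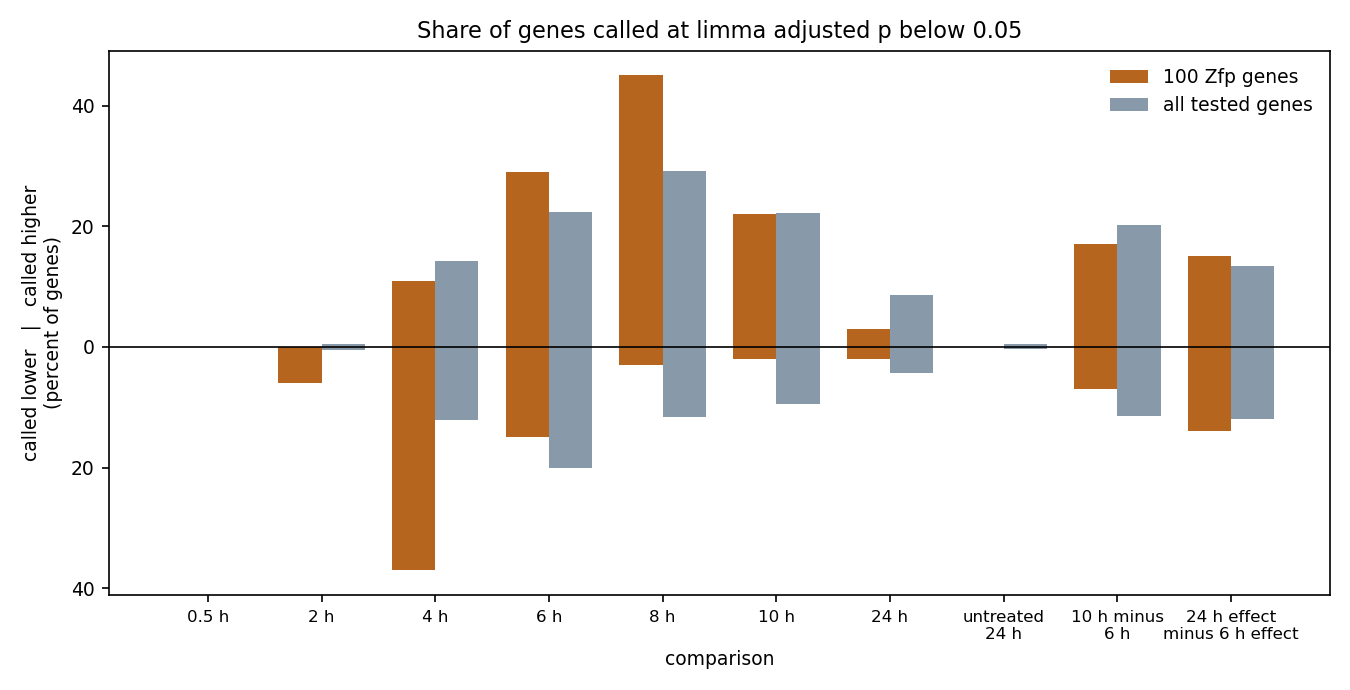
Share of genes called higher (above 0) and lower (below 0), in percent, in each comparison, for the 100 members and for all 13614 tested genes. Members exceed the background on the lower side at 4 h (37 of 100 against 12.1%) and on the higher side at 8 h (45 of 100 against 29.2%).

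**Figure D3:**
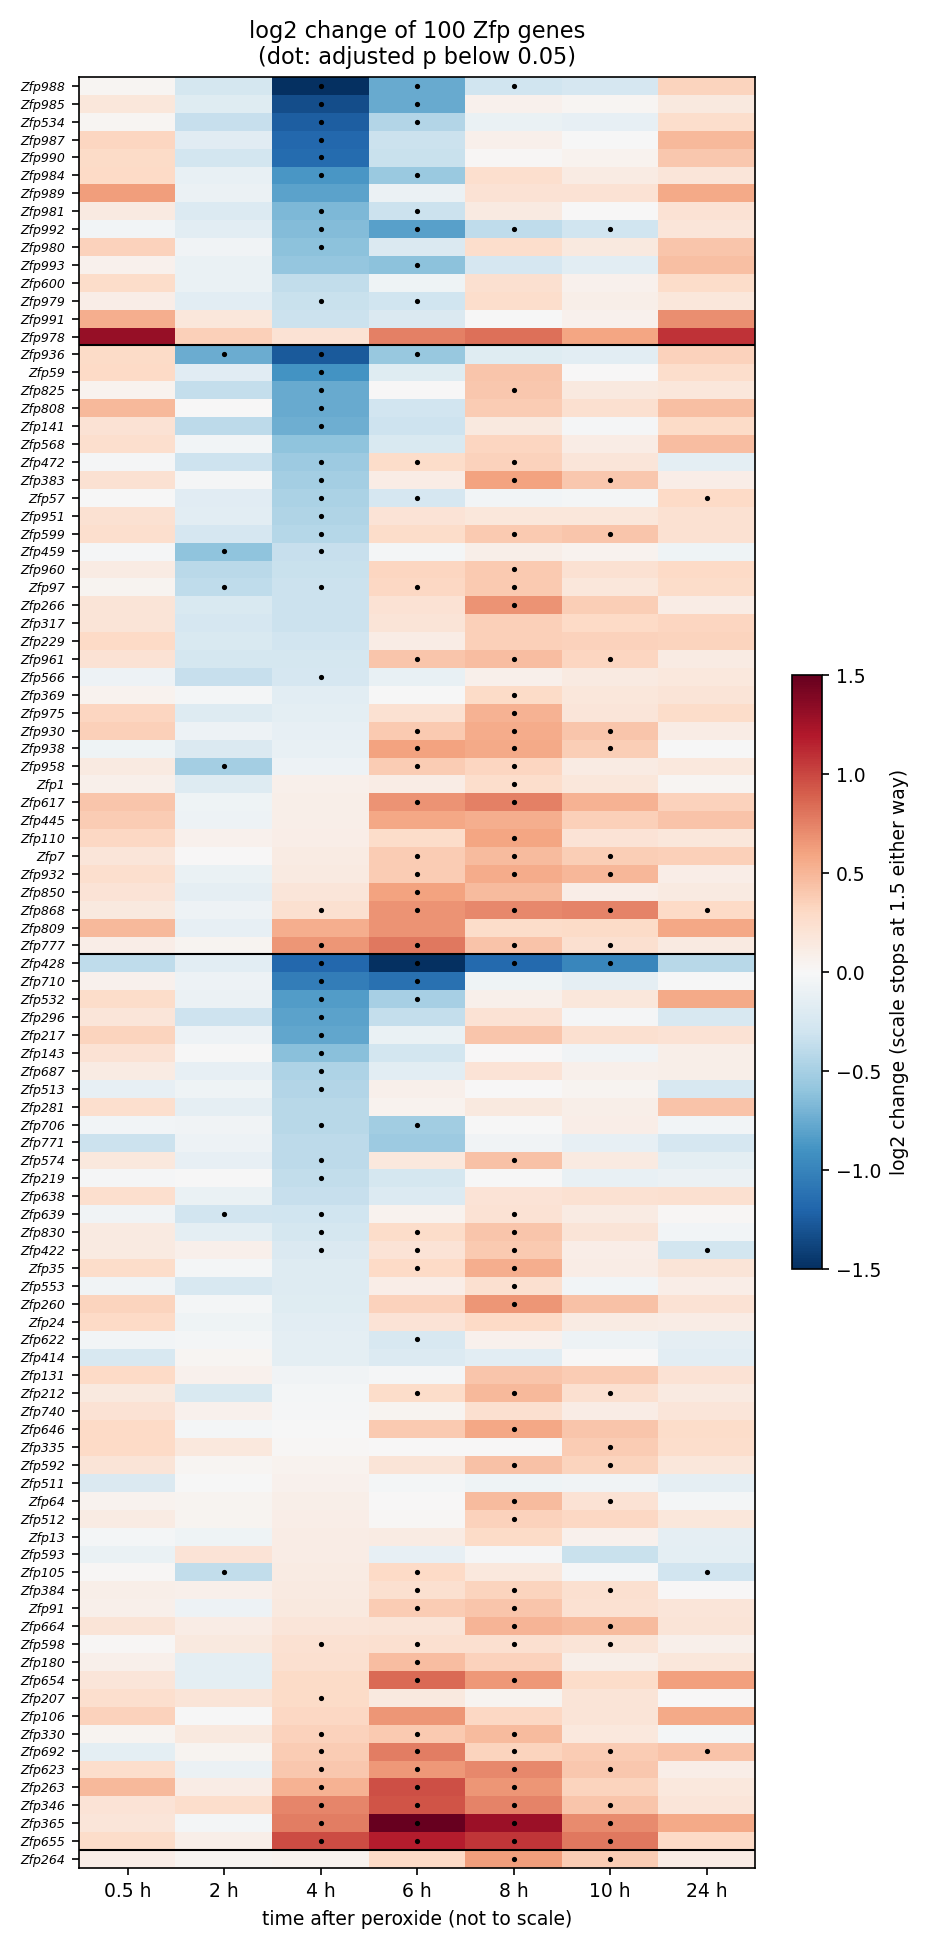
Heat map of the log2 changes of all 100 members (rows, grouped as chromosome 4 cluster, other KRAB match, no KRAB match and no coding sequence) at each time against the untreated group of that comparison (columns), with colour from -1.5 to 1.5 and a dot where the adjusted p is below 0.05. Cluster rows are below 0 at 4 h in 14 of 15 genes, while many rows of the other sets are above 0 at 8 h.

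The 15 genes of the chromosome 4 cluster, whose proteins belong to a group known for repressing retroelements, were mostly lower at 4 h, and fewer of them were called lower at 8 h. Their median log2 change was -0.16 at 2 h, -0.67 at 4 h, -0.32 at 6 h, 0.08 at 8 h and 0.05 at 10 h. With all 27 libraries and no correction, none was called higher at any treated time. At 24 h this count depended on the setting, as given below. The numbers called lower were 0 at 2 h, 10 at 4 h, 8 at 6 h, 2 at 8 h and 1 at 10 h. Their lowest mean of the times up to 10 h was at 4 h in 13 of 15 genes and at 6 h in the other two.

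Zfp985, the cluster gene with the fewest shared stretches (chr4:147553277-147585198, plus strand), had 31.8, 31.7 and 28.2 FPKM in untreated cells at 0 h. It had 11.4, 11.9 and 11.4 FPKM at 4 h, 18.0, 16.4 and 18.7 FPKM at 6 h and 32.5, 30.8 and 32.7 FPKM at 8 h. All 4 h and 6 h libraries lay below all untreated ones, and the 8 h libraries lay within or just above their range. Its log2 change was -1.33 (SE 0.07, adjusted p = 4.38e-12) at 4 h and -0.76 (adjusted p = 9.36e-09) at 6 h.

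Zfp988 (chr4:147305674-147333734, plus strand) had the largest fall of any member at 4 h. Its values were 42.4, 43.4 and 32.1 FPKM in untreated cells at 0 h and 13.7, 13.5 and 12.5 FPKM at 4 h. This was a log2 change of -1.49 (SE 0.11, adjusted p = 1.45e-09), followed by -0.75 at 6 h and -0.30 at 8 h. The groups did not overlap at 4 h or 6 h. Zfp990, the cluster gene of highest level, went from 86.4, 84.9 and 51.4 FPKM to 29.8, 35.0 and 31.5 FPKM at 4 h (log2 change -1.15, adjusted p = 3.15e-06). Its fall was smaller at 6 h and not called there (-0.33, adjusted p = 0.0707). Zfp534 fell by 1.23 on the log2 scale at 4 h.

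Zfp992 had its lowest mean at 6 h, as did Zfp993, also of the cluster. The values of Zfp992 were 23.1, 23.6 and 21.2 FPKM in untreated cells, 13.5, 14.2 and 14.4 FPKM at 4 h and 12.6, 12.04 and 12.8 FPKM at 6 h. Log2 changes were -0.65 at 4 h, -0.81 at 6 h, -0.38 at 8 h and -0.30 at 10 h, each called. Zfp978 had 68.4 and 70.8 FPKM in untreated 0 h replicates 1 and 2 and 3.96 FPKM in replicate 3, and it was called at no time. It was also low in 2 h replicate 1 (12.6 FPKM), 8 h replicate 3 (27.1 FPKM) and 10 h replicate 3 (16.2 FPKM). Its log2 change without untreated 0 h replicate 3 was -1.06 at 4 h and -0.52 at 6 h, neither called (adjusted p = 0.163 and 0.497). With those 4 libraries left out the same changes were called (adjusted p = 0.000175 and 0.0268).

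Without untreated 0 h replicate 3 alone, 14 of 15 cluster genes were called lower at 4 h and 13 at 6 h, with medians of -1.06 and -0.70. With all 4 libraries left out, 15 of 15 were lower at both times, against 27.7% of all tested genes at 4 h and 30.7% at 6 h. That fit kept the 4 h libraries, with GC slopes from 0.137 to 0.214. With the GC and length correction 10 were lower at 4 h (median -0.54) and 10 at 6 h, against 17.6% and 25.9% of all tested genes. When only the compared groups entered the fit, 5 were lower at 4 h and 3 at 6 h. The median was below 0 at 4 h and 6 h in each of these fits. How far the cluster came back depended on the setting. At 8 h and 10 h the medians were -0.23 and -0.25 without untreated 0 h replicate 3, -0.16 and -0.08 with the 4 libraries left out, and -0.12 and -0.15 under median-of-ratios scaling. Against untreated cells at 24 h, the 24 h median was 0.33, with all 15 genes above 0 and none called. With the 4 libraries left out 14 were called higher there, against 33.1% of all tested genes. Only the compared groups gave 10 higher. The GC and length correction gave 1, against 13.1% of all tested genes, and median-of-ratios scaling gave none.

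**Figure D4:**
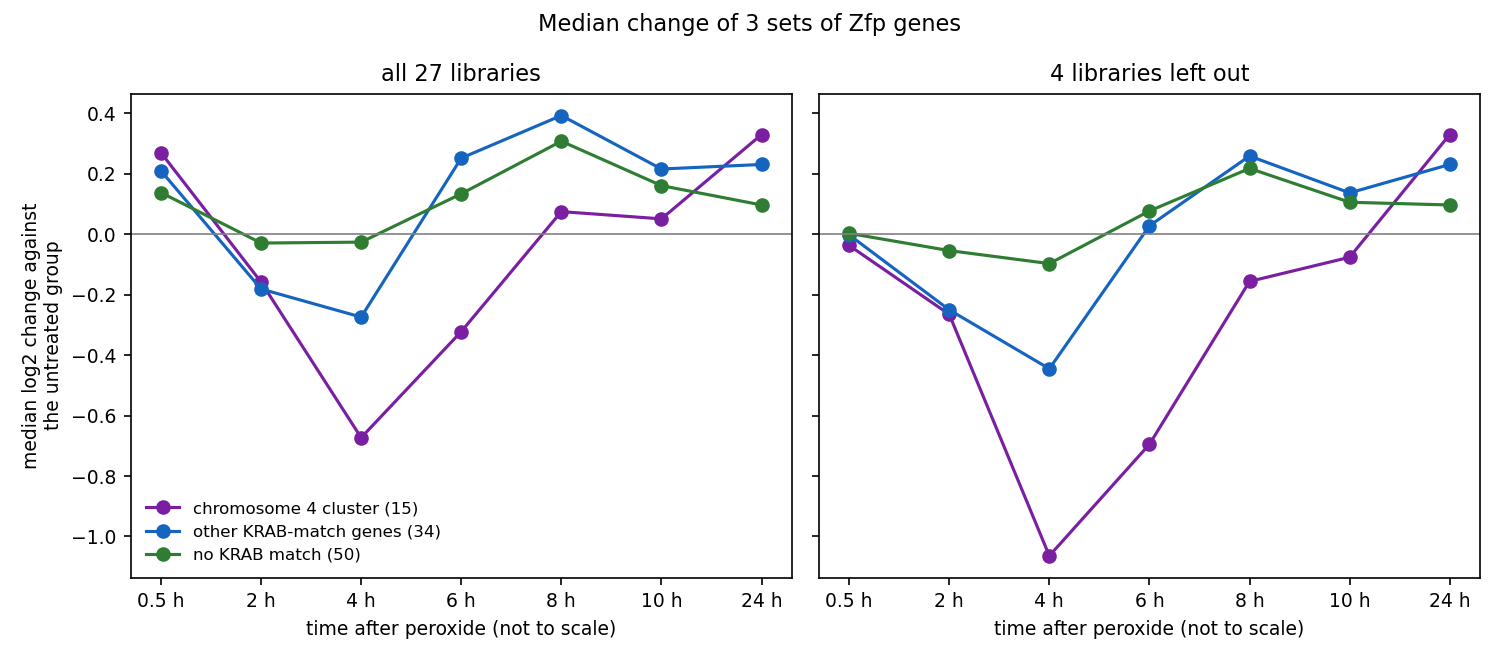
Median log2 change (vertical axis) at each time after peroxide (horizontal axis, not to scale) for the chromosome 4 cluster (15 genes), the other genes with a KRAB match (34) and those without (50), with all 27 libraries on the left and 4 libraries left out on the right. The cluster median is -0.67 at 4 h and 0.08 at 8 h on the left, where the other 2 sets stand at 0.39 and 0.31 at 8 h, and -1.06 at 4 h on the right.

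The 34 other genes with a KRAB match were more often called lower than higher at 4 h and more often higher at 8 h. At 2 h none was called higher and 4 lower, at 4 h 2 were higher and 13 lower (median -0.27), at 6 h 12 were higher and 2 lower, and at 8 h 20 were higher and none lower (median 0.39). The split at 6 h turned without untreated 0 h replicate 3, with 3 higher and 6 lower (median 0.03), while at 8 h 11 were higher and 1 lower. At 10 h the count was 9 higher and none lower, but 3 and 1 without that library and 2 and 2 under median-of-ratios scaling. With the 4 libraries left out the counts were 1 higher and 25 lower at 4 h, 10 higher and 7 lower at 6 h and 18 higher and 1 lower at 8 h. Over all tested genes the shares in that fit, higher and lower, were 22.9% and 27.7% at 4 h, 25.4% and 30.7% at 6 h and 30.7% and 17.6% at 8 h. Of the 50 members without a KRAB match, 9 were higher and 14 lower at 4 h (median -0.03), and 24 were higher and 1 lower at 8 h (median 0.31). The differences between the sets were not tested as such.

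Among the KRAB genes outside the cluster, Zfp936, on chromosome 7 (chr7:43114229-43192109), was called lower at 2, 4 and 6 h. It had 27.8, 25.6 and 16.3 FPKM in untreated cells, 10.5, 14.3 and 15.1 FPKM at 2 h and 9.29, 8.64 and 8.72 FPKM at 4 h. The log2 change was -0.74 at 2 h (adjusted p = 0.0115), -1.26 at 4 h (adjusted p = 1.4e-06) and -0.57 at 6 h. The groups did not overlap at 2 h or 4 h. The call at 2 h was lost without untreated 0 h replicate 1 (-0.60, adjusted p = 0.0983), without replicate 2 (-0.66, adjusted p = 0.0739) or without 2 h replicate 1 (-0.59, adjusted p = 0.0785). The 5 other members lower at 2 h were Zfp459 (-0.60, adjusted p = 0.000135), Zfp958 (-0.51), Zfp97 (-0.39), Zfp105 (-0.37) and Zfp639 (-0.28). The calls of Zfp958 and Zfp639 at 2 h were lost without untreated 0 h replicate 1 (adjusted p = 0.245 and 0.168) or 2 (0.148 and 0.113) and without 2 h replicate 1 (0.21 and 0.151) or 2 (0.133 and 0.0846), and that of Zfp639 also without 2 h replicate 3 (0.053).

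A list of imprint and retroelement repressors had 9 tested genes, 8 of them members. Zfp57 fell modestly: it had 123, 137 and 136 FPKM in untreated cells and 97.7, 91.9 and 94.9 FPKM at 4 h, with no overlap (log2 change -0.47, SE 0.07, adjusted p = 2.57e-05). It was still lower at 6 h (-0.26, adjusted p = 0.00536). Zfp979, of the cluster, fell by 0.33 at 4 h and by 0.30 at 6 h on the log2 scale. Its call at 4 h was lost without untreated 0 h replicate 1 (-0.22, adjusted p = 0.193) or 2 (-0.25, adjusted p = 0.166) and without 4 h replicate 1 (-0.32, adjusted p = 0.0923) or 3 (-0.30, adjusted p = 0.121). Its call at 6 h was lost without untreated 0 h replicate 1 or 2 (adjusted p = 0.202 and 0.172) and without each 6 h library (adjusted p = 0.066, 0.14 and 0.0551). Zfp932, a repressor of endogenous retroviruses, rose by 0.38 at 6 h, 0.56 at 8 h and 0.50 at 10 h, and Zfp961 by 0.42, 0.46 and 0.32. Without untreated 0 h replicate 3 the changes at 6 h were 0.22 for both and missed the threshold (adjusted p = 0.0542 and 0.0683). The change of Zfp961 at 10 h missed it without that library (0.12, adjusted p = 0.385) or without 10 h replicate 1 (0.26, adjusted p = 0.188) or 2 (0.28, adjusted p = 0.161).

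The list's other members were not called at any treated time. At 4 h the log2 change was -0.60 for Zfp568, a placental repressor of Igf2, 0.09 for Zfp445, which acts with Zfp57 at imprints, 0.55 for Zfp809, a silencer of retroviral DNA, and -0.80 for Zfp989. Without untreated 0 h replicate 3, Zfp568 was lower at 4 h (-0.93, adjusted p = 0.00164), as was Zfp989 (-1.41, adjusted p = 0.000748). The non-member Zfp819, which lay under the floor at 2.04 FPKM in its lowest library, had the largest fall of the list, by 1.33 at 4 h. Of the whole list, 3 genes were lower and none higher at 4 h (median -0.33), and 2 were higher and none lower at 8 h. Over all tested genes 12.1% were lower and 14.2% higher at 4 h, and 29.2% were higher and 11.6% lower at 8 h.

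The co-repressor machinery that KRAB proteins use had few calls at any time. Of 22 listed genes, none of them a member, 2 were higher and 2 lower at 4 h, 1 was higher and 4 lower at 6 h, 2 were higher and 3 lower at 8 h and 1 was higher and 2 lower at 10 h. The lower shares, 18.2% at 6 h, 13.6% at 8 h and 9.09% at 10 h, were near those of all tested genes (20%, 11.6% and 9.43%). The higher shares at these times, 4.55%, 9.09% and 4.55%, were below those of all tested genes (22.3%, 29.2% and 22.2%). At 4 h both shares were 9.09%, against 14.2% higher and 12.1% lower. Trim28, the KRAB co-repressor, had 470 ± 59.6 FPKM (SD, n = 3) in untreated cells and 440 FPKM at 4 h, where it was not called (-0.09). It was lower at 6, 8 and 10 h, by -0.46, -0.67 and -0.63. Resf1, a partner of Setdb1, fell by 0.86 at 4 h, and the histone chaperone gene Daxx by 0.57. Chd3, a chromatin remodeller, rose by 0.70 at 4 h. Setdb1 was called at no time, with -0.17 at 4 h. The changes of these 22 genes were not checked with libraries left out.

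Of 7 listed regulators of pluripotency, 4 were lower and 1 higher at 4 h, with a median of -0.63, and by 8 h none was called. Over all tested genes 12.1% were lower and 14.2% higher at 4 h, and 11.6% and 29.2% at 8 h. Zfp706, a small protein whose loss favours self-renewal, was the steadiest: it had 46.5, 45.9 and 43.1 FPKM in untreated cells, 33.5, 34.2 and 33.2 FPKM at 4 h and 31.0, 29.4 and 32.9 FPKM at 6 h. All treated libraries lay below all untreated ones, with log2 changes of -0.41 (adjusted p = 2.98e-05) and -0.53 (adjusted p = 6.46e-07). Zfp296 fell by 0.80 at 4 h, Zfp217 by 0.78 and Zfp143 by 0.63. Zfp217 missed the threshold without untreated 0 h replicate 1 (-0.61, adjusted p = 0.0608) or 2 (-0.62, adjusted p = 0.0577).

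Zfp207 rose by 0.29 at 4 h, a call lost without untreated 0 h replicate 3 (0.14, adjusted p = 0.152), without 4 h replicate 2 (0.27, adjusted p = 0.0796) or without 4 h replicate 3 (0.28, adjusted p = 0.0718). Zfp281, a regulator of the exit from pluripotency, had 25.3, 24.9 and 12.98 FPKM in untreated cells and 13.5, 15.9 and 15.1 FPKM at 4 h and was not called (-0.42). It was lower at 4 h without untreated 0 h replicate 3 (-0.72, adjusted p = 0.00445). The non-member Zfp462 was called lower at 6 h only (-0.72).

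Zfp428 and Zfp710, neither with a KRAB match, had the largest falls of all members at 6 h. Zfp710 (chr7:80024814-80094173, plus strand) had 9.68, 9.81 and 9.53 FPKM in untreated cells, 4.22, 4.41 and 3.97 FPKM at 4 h and 3.90, 3.83 and 4.02 FPKM at 6 h. At 8 h it was back at 8.80, 9.72 and 9.19 FPKM. Its libraries were tight throughout, with no overlap at 4 h or 6 h and overlap at 8 h. The log2 change was -1.04 at 4 h (SE 0.06, adjusted p = 3.67e-11), -1.12 at 6 h (adjusted p = 4.25e-12) and -0.06 at 8 h.

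Zfp428 (chr7:24507006-24515682, plus strand), a short gene with a single finger match, stayed low for longer. It had 45.2, 45.1 and 132 FPKM in untreated cells, 31.0, 24.5 and 28.6 FPKM at 4 h, 15.0, 16.7 and 16.5 FPKM at 6 h and 25.4, 24.2 and 36.5 FPKM at 8 h. All libraries at 4, 6 and 8 h lay below all untreated ones, and the control was widened by replicate 3. The log2 change was -1.18 at 4 h, -1.95 at 6 h (SE 0.31, adjusted p = 3.13e-05), -1.17 at 8 h and -0.98 at 10 h. Without untreated 0 h replicate 3 the changes were smaller: -0.68 at 4 h (adjusted p = 0.043), -1.44 at 6 h (8.24e-05) and -0.66 at 8 h (0.0431). The call at 10 h was lost without that library (-0.47, adjusted p = 0.178) and without 10 h replicate 1 (-0.87, adjusted p = 0.0841) or 2 (-0.87, adjusted p = 0.0836). Zfp428 was also high in 2 h replicate 1, at 94.6 FPKM against 48.1 and 42.0 FPKM in the other pair, and its transcript has a GC content of 64.4%.

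The promoter of Zfp428 is shown because it held 2 copies of the octamer ATGCAAAT, the word read by the Oct family of factors, in capitals. It lies at chr7:24506837-24507136 on the plus strand (RefSeq, GRCm38.p6).
Zfp428: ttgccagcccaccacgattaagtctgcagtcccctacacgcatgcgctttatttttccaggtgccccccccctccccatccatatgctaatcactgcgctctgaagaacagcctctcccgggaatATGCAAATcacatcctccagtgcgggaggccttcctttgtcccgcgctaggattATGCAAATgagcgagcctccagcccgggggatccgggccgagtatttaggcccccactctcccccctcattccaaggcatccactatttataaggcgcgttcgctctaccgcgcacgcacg
On either strand the octamer occurred in 3.96% of member promoters, in none of the cluster promoters and in 1.74% of all promoters. The members with it were Zfp207 and Zfp296, with 1 match each, and Zfp263 and Zfp428, with 2 each. A double match was thus not particular to Zfp428, and Zfp263 rose at 6 h. The word was chosen after the sequences had been read.

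The largest rises came from genes without a KRAB match. Zfp365, a gene linked to genome stability, had 9.65, 9.07 and 4.85 FPKM in untreated cells, 12.8, 13.8 and 14.1 FPKM at 4 h, 26.8, 25.9 and 26.7 FPKM at 6 h, 21.6, 22.9 and 15.9 FPKM at 8 h and 15.4, 14.2 and 9.98 FPKM at 10 h. Every library from 4 h to 10 h lay above every untreated one. The log2 change was 0.77 at 4 h, 1.68 at 6 h (SE 0.20, adjusted p = 4.64e-07), 1.29 at 8 h and 0.71 at 10 h. The call at 10 h was lost without untreated 0 h replicate 3 (0.43, adjusted p = 0.0745) or 10 h replicate 1 (0.59, adjusted p = 0.055).

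Zfp655 followed a flatter course. It had 10.3, 9.96 and 5.22 FPKM in untreated cells and 18.8, 20.5 and 20.3 FPKM at 6 h, with log2 changes of 0.98 at 4 h, 1.18 at 6 h (adjusted p = 1.74e-05), 1.07 at 8 h and 0.79 at 10 h. Zfp346, a protein that binds double-stranded RNA, had 7.12, 6.85 and 4.13 FPKM and then 12.4, 11.9 and 12.5 FPKM at 6 h (log2 change 0.94, adjusted p = 1.3e-06). All 6 h libraries of both genes lay above all untreated ones. Zfp263 rose by 0.97 at 6 h (adjusted p = 0.000199), and its smaller rise at 4 h was lost without untreated 0 h replicate 3 (0.23, adjusted p = 0.244) or without any 1 of the 4 h libraries, where the adjusted p was 0.0632, 0.0781 and 0.12.

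Zfp777, a gene with a KRAB match, rose with little spread between libraries. Its values were 7.23, 6.77 and 6.38 FPKM in untreated cells, 11.6, 11.1 and 11.2 FPKM at 4 h and 11.8, 13.4 and 12.4 FPKM at 6 h. Log2 changes were 0.66 at 4 h (SE 0.06, adjusted p = 2.3e-08), 0.80 at 6 h, 0.43 at 8 h and 0.24 at 10 h. Zfp868, which also has a KRAB match, climbed later and stayed: it had 11.6, 11.8 and 8.68 FPKM in untreated cells, 18.6, 17.4 and 18.4 FPKM at 8 h and 19.1, 18.0 and 18.3 FPKM at 10 h. All libraries at 8 h and 10 h lay above all untreated ones, with log2 changes of 0.72 (adjusted p = 2.11e-07) and 0.74 (adjusted p = 2.83e-07). Zfp692 rose by 0.77 at 6 h and Zfp654 by 0.85.

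**Figure D5:**
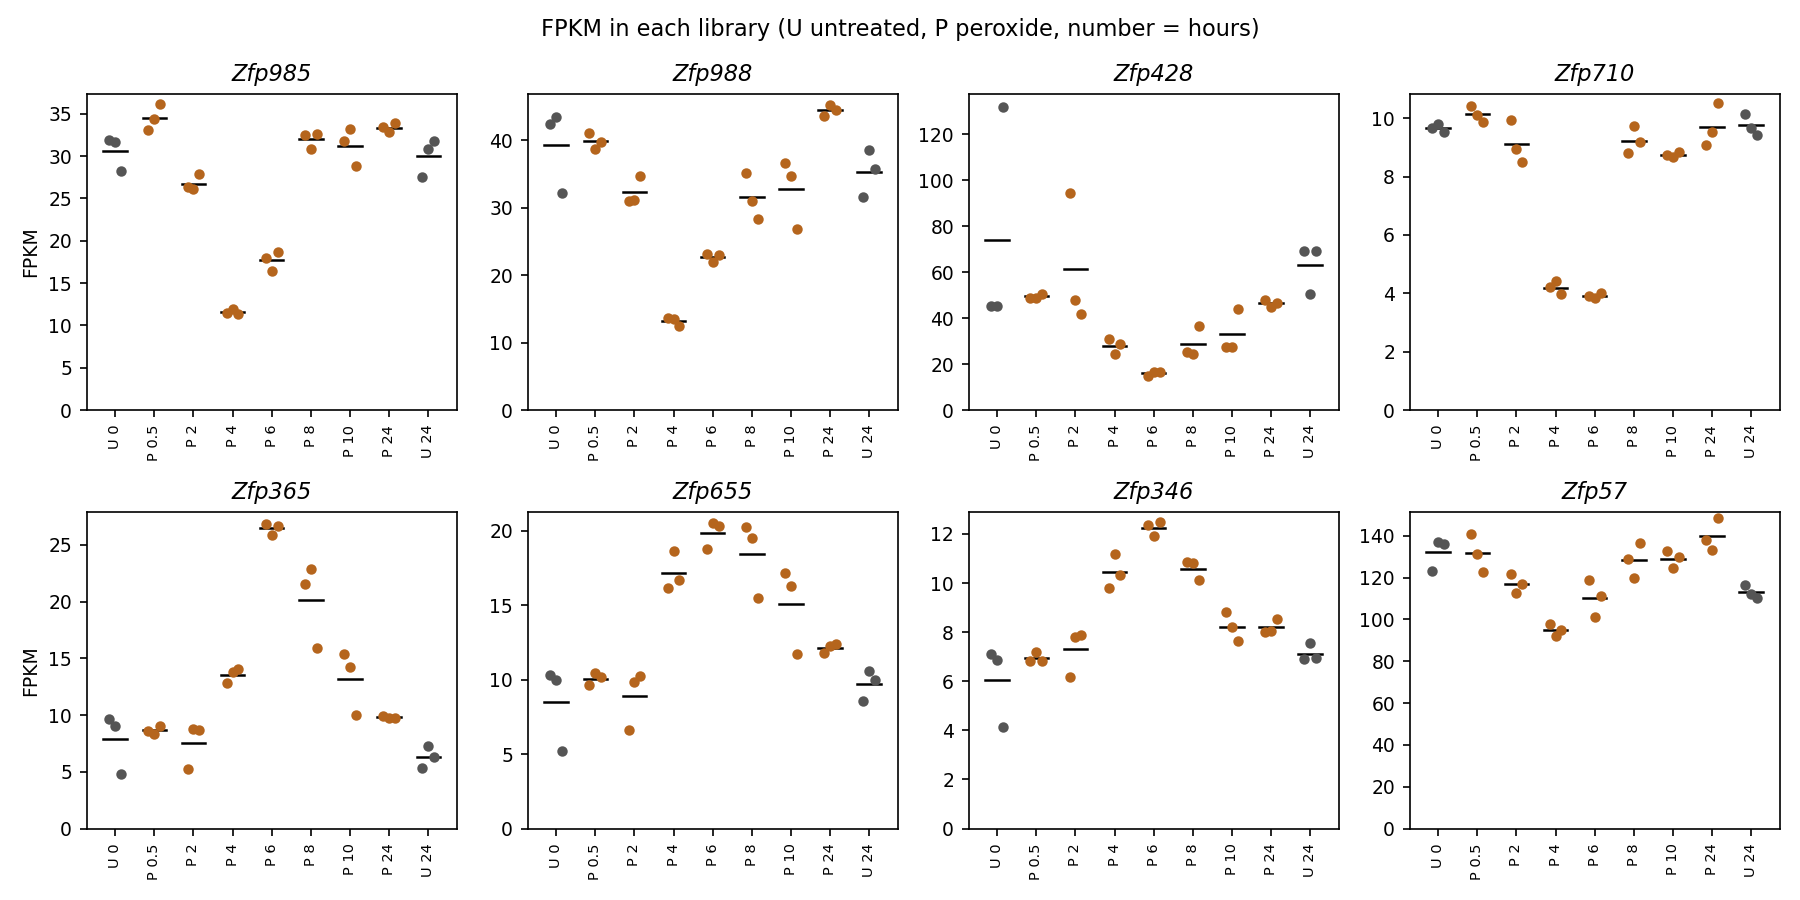
FPKM of 8 members in each of the 27 libraries, with 1 panel per gene, the groups in order of time on the horizontal axis, points for libraries and bars for group means. Zfp985, Zfp988, Zfp428 and Zfp710 fall at 4 h or 6 h, Zfp365, Zfp655 and Zfp346 peak at 6 h, and Zfp57 stays between 91.9 and 148 FPKM.

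A list of zinc finger proteins with RNA, ribosome or ubiquitin roles had 10 tested genes, 9 of them members. At 4 h 3 were higher and 1 lower (median 0.13), at 6 h 5 were higher and 2 lower (median 0.26), at 8 h 5 were higher and 1 lower and at 10 h 2 were higher and 1 lower. The shares of all tested genes, higher and lower, were 14.2% and 12.1% at 4 h and 22.3% and 20% at 6 h. They were 29.2% and 11.6% at 8 h and 22.2% and 9.43% at 10 h. The list's shares at 10 h (20% and 10%) and its lower shares at 4, 6 and 8 h (10%, 20% and 10%) were near these. Beside Zfp346, the nucleolar gene Zfp330 rose by 0.34 at 4 h, 0.39 at 6 h and 0.48 at 8 h. Zfp598, the ubiquitin ligase of collided ribosomes, was called higher from 4 h to 10 h by 0.19 to 0.24. None of these calls held under median-of-ratios scaling, where the change was 0.17 at 4 h (adjusted p = 0.149), 0.18 at 6 h (0.0801), 0.04 at 8 h (0.71) and -0.0005 at 10 h (0.997). The GC and length correction ended the calls at 8 h (adjusted p = 0.0517) and 10 h (0.0719). Leaving out untreated 0 h replicate 1 or 3 or 10 h replicate 1 or 3 also ended its call at 10 h (adjusted p = 0.101, 0.0865, 0.101 and 0.165), and leaving out untreated 0 h replicate 1 or 4 h replicate 1 ended its call at 4 h (adjusted p = 0.0582 and 0.052). Zfp830 was lower at 4 h (-0.26) and higher at 6 h (0.27) and 8 h (0.42). Its fall at 4 h was lost without untreated 0 h replicate 1 (-0.22, adjusted p = 0.0606) or 4 h replicate 1 (-0.21, adjusted p = 0.0829).

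Zfp91, a ubiquitin ligase, was called higher at 6 h (0.38) and 8 h (0.41), but without untreated 0 h replicate 3 the changes were 0.18 (adjusted p = 0.238) and 0.21 (adjusted p = 0.168). Leaving out any 6 h library ended the first call (adjusted p = 0.0597, 0.0525 and 0.0834), and leaving out 8 h replicate 1 or 2 ended the second (adjusted p = 0.0744 and 0.0694). Zfp622, a factor of large ribosomal subunit maturation, was called lower at 6 h (-0.24), a call lost without untreated 0 h replicate 3 (-0.14, adjusted p = 0.153) and without 6 h replicate 2 (-0.21, adjusted p = 0.0837) or 3 (-0.22, adjusted p = 0.0737). Zfp593, Zfp638 and Zfp106 were not called at any treated time. The non-member Zfp277 was called lower at 6, 8 and 10 h, by -0.14, -0.18 and -0.20.

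At 24 h, 3 members were higher and 2 lower than in untreated cells at 24 h, where 8.63% of all tested genes were higher and 4.28% lower. Of the members, 23 had an unadjusted p below 0.05. Zfp57 had 138, 133 and 148 FPKM against 117, 112 and 110 FPKM in untreated cells at 24 h, with no overlap (log2 change 0.30, SE 0.07, adjusted p = 0.00713). Under median-of-ratios scaling it was 0.20 and not called (adjusted p = 0.133). Zfp692 was higher by 0.42 and Zfp868 by 0.30, and Zfp105 and Zfp422 were lower by -0.29 and -0.28. Single libraries decided 3 of these calls. Zfp692 lost it without peroxide 24 h replicate 3 (adjusted p = 0.0865) or untreated 24 h replicate 3 (0.0701), and Zfp868 without peroxide 24 h replicate 3 (0.0735) or untreated 24 h replicate 1 (0.0534). Zfp422 lost it without peroxide 24 h replicate 2 or 3 (0.0553 and 0.0789) or untreated 24 h replicate 2 or 3 (0.0737 and 0.0985).

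The count at 24 h depended on libraries outside that comparison, which set the shared spread. With the 4 libraries left out, 57 members were called higher and 8 lower, where 33.1% of all tested genes were higher and 18.2% lower. Without peroxide 24 h replicate 3 the counts were 1 and 1, and without untreated 24 h replicate 3 they were 2 and 1. With untreated 24 h replicates 1 and 3, which had GC slopes of 0.183 and 0.115, left out as well, 16 were called, 14 higher and 2 lower. That fit has 1 untreated 24 h library as its control, which is assumed to vary like the other groups. Untreated cells at 24 h had no member called against untreated cells at 0 h, with 0.426% of all tested genes higher and 0.279% lower, and 6 members had an unadjusted p below 0.05. With the 4 libraries left out, 4 members were higher and 30 lower there, against 11.7% and 18.4% of all tested genes.

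The 10 h and 6 h groups were compared directly. Of the members, 17 were higher at 10 h and 7 lower, against 20.2% and 11.5% of all tested genes. Of those 17, 8 were cluster genes, among them Zfp985 (0.79, adjusted p = 1.33e-08). Zfp710 was higher by 0.99 (adjusted p = 1e-10) and Zfp428 by 0.96, and Zfp365 was lower by -0.97 (adjusted p = 0.000555), Zfp263 by -0.63 and Zfp777 by -0.55. Zfp428 missed the threshold without 6 h replicate 1 (0.92, adjusted p = 0.0659) or 10 h replicate 3 (0.74, adjusted p = 0.11), and Zfp263 without 10 h replicate 3 (-0.50, adjusted p = 0.0661). Under median-of-ratios scaling the count was 9 higher and 22 lower, against 14.2% and 19.1% of all tested genes. The split thus turned for the members and for all tested genes alike. Without 6 h replicate 2 it was 8 and 7, and without 10 h replicate 2 it was 9 and 6.

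The effect at 24 h minus the effect at 6 h, each against its own untreated group, differed from 0 for 29 members, 15 upward and 14 downward, against 13.4% and 12% of all tested genes. Of those 15, 9 were cluster genes, such as Zfp985 (0.90, adjusted p = 4.24e-07) and Zfp988 (1.08, adjusted p = 2.31e-05). Without untreated 0 h replicate 3 the counts were 33 upward and 14 downward, against 23% and 15.3% of all tested genes.

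Members of related families above the same floor are few. At 8 h, where 29.2% of all tested genes were higher and 11.6% lower, 4 of 8 Zbtb genes, 6 of 7 Zscan and Zkscan genes and 3 of 9 Zc3h genes were higher and none was lower, so the Zc3h share of 33.3% was near the background. At 4 h the counts of higher and lower genes were 1 and 1, 2 and 2, and 1 and 1, and the Zbtb and Zc3h shares (12.5% and 11.1% in each direction) were near the background of 14.2% and 12.1%. The wider Zfp family, without the floor, gave 25 higher and 71 lower of 310 tested genes at 4 h and 172 higher and 4 lower at 8 h. With a mean of 3 FPKM or more as the level rule, which keeps genes that fell, 16 were higher and 49 lower of 171 at 4 h, and 86 were higher and 4 lower at 8 h.

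The authors' deposited table marked 13 members as changed at 4 h, 1 of them up and 12 down, 6 at 6 h, 4 up and 2 down, and 3 at 8 h, 2 up and 1 down. Among all 38352 genes it marked 1253 at 4 h, 2523 at 6 h and 1416 at 8 h. These marks come from the authors' own comparisons and not from the limma calls above. In the authors' deposited table no member was marked at 0.5, 2 or 10 h, where 159, 88 and 934 of all genes were marked. Only Zfp978 was marked at 24 h, as up, among 872 of all genes. Transcript decay and protein levels were not measured.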

How the data were processed

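RNA from 27 mouse embryonic stem cell libraries, 9 groups of 3, was sequenced as stranded poly(A) paired-end reads, per the labels' protocols. Tools listed in the submitters' processing notes are HISAT2, StringTie, edgeR, cutadapt and FastQC, on mm10, without version numbers. The deposited tables, 7 in all, hold FPKM values for 6 libraries each and the authors' own comparisons: fold (ratio), log2 fold, p-value and q-value columns, per the file headers. FPKM keeps no read depth, so depth per library is unknown and no counting interval is given.

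Members and lists were chosen with earlier results of these data known. The 13614 genes that reached 1 FPKM in 3 or more libraries entered limma 3.58.1 with a mean-variance trend (R 4.3.3) on log2(FPKM + 1), with 1 mean per group over all 27 libraries. p-values were Benjamini-Hochberg adjusted per comparison over all tested genes and called below 0.05. The median standard error of a change was 0.13 log2 units. The fit was tested on simulated data. The named genes were up to 5 rises and 5 falls per comparison whose libraries did not overlap, the members of 3 function lists, the 5 highest members and those next to the floor. Exceptions are named as chosen after their values were seen.

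Finger and KRAB matches came from translated GENCODE vM21 transcripts (GRCm38), matched to all 100 members. Fingers were C, 2 or 4 residues, C, 12 residues, H, 3 to 5 residues, H. A KRAB match was D, V, any, V or I or L, any, F, or else L, Y, any, any, V, M, any, E. A protein with no match may still carry the domain. Promoters are RefSeq (GRCm38.p6). Alternatives were another pseudocount or filter, median-of-ratios scaling, only the compared groups, both untreated groups as control, a GC and length correction, a replicate block, 4 libraries left out together and each library left out.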

Additional observations from a re-analysis of the deposited data

Results flagged for a closer look

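For 29 members the effect at 24 h differed from the effect at 6 h in limma's test of the difference itself, 15 upward and 14 downward, near the 13.4% and 12% of all tested genes. The 2 effects use different untreated groups. The largest upward differences, 24 h minus 6 h, were 1.53 log2 units for Zfp428, 1.11 for Zfp710, 1.08 for Zfp988, 1.06 for Zfp993 and 1.06 for Zfp532. The largest downward differences were -1.11 for Zfp365, -0.88 for Zfp655, -0.81 for Zfp263, -0.76 for Zfp346 and -0.66 for Zfp777. Zfp428 has a transcript GC content of 64.4%, and its control at 0 h held a library at 132 FPKM beside others at 45.2 and 45.1 FPKM. Zfp993 missed the threshold without untreated 0 h replicate 1 (0.96, adjusted p = 0.0563) or 2 (0.91, adjusted p = 0.0663), without 6 h replicate 2 (1.01, adjusted p = 0.0512), without untreated 24 h replicate 1 (0.90, adjusted p = 0.0719) and with no filter on low values (1.06, adjusted p = 0.0539). Zfp346 missed it under the GC and length correction (-0.69, adjusted p = 0.0834). Zfp263 missed the threshold without untreated 24 h replicate 2 (-0.76, adjusted p = 0.0574), without 6 h replicate 1 (-0.78, adjusted p = 0.0553) and without 24 h replicate 1 (-0.77, adjusted p = 0.0558), as well as with no filter on low values (-0.81, adjusted p = 0.0579) and with only the compared groups (-0.81, adjusted p = 0.07).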

How the results depend on the processing

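Of 172 counts of changed members under alternatives, 124 were within 1.5 times the count reported. Of 3972 values of single named members, 3619 kept their side of the threshold, 164 lost the call and 188 gained it. Only 1 value called in the main fit turned in direction: Zfp598 at 10 h, at -0.0005 under median-of-ratios scaling. Direction was not compared for values not called in the main fit. The cause of these shifts was not tested. With only the compared groups in the fit, which leaves fewer libraries to estimate the spread, the numbers of changed members were 0 at 2 h, 11 at 4 h, 15 at 6 h, 8 at 8 h, 1 at 10 h and 35 at 24 h. With untreated 0 h replicate 3, 2 h replicate 1, 8 h replicate 3 and 10 h replicate 3 left out they were 1 at 0.5 h, 20 at 2 h, 78 at 4 h, 65 at 24 h, 34 in untreated cells at 24 h, 61 for 10 h against 6 h and 58 for the 24 h effect minus the 6 h effect. With untreated 24 h replicates 1 and 3 left out as well, an alternative chosen after seeing the data that leaves 1 untreated 24 h library, assumed to vary like the other groups, they were 1 at 0.5 h, 30 at 2 h, 80 at 4 h, 42 at 10 h, 16 at 24 h, 5 in untreated cells at 24 h, 68 for 10 h against 6 h and 48 for the 24 h effect minus the 6 h effect. Median-of-ratios scaling gave 12 at 2 h and 3 at 24 h, both untreated groups as control gave 11 at 2 h, and no filter on low values gave 13 at 10 h. The GC and length correction gave 12 at 2 h, 12 at 24 h, 1 in untreated cells at 24 h and 47 for 10 h against 6 h. Over all tested genes the corrected shares, higher and lower, were 0.911% and 1.18% at 2 h and 13.1% and 6.49% at 24 h. For 10 h against 6 h they were 26.6% and 17%. With the 4 libraries left out instead, the shares were 22.9% and 27.7% at 4 h and 33.1% and 18.2% at 24 h. In untreated cells at 24 h they were then 11.7% and 18.4%, and for 10 h against 6 h 33.3% and 20.6%. For the 24 h effect minus the 6 h effect they were 32.3% and 22.9%. Shares for the other fits are not given here.

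Leaving out each library in turn gave 2 to 23 members at 2 h, 9 to 33 at 10 h (9 without 10 h replicate 1, and 7 higher and 3 lower without untreated 0 h replicate 3), 2 to 7 at 24 h, 0 to 1 in untreated cells at 24 h, 15 to 22 for 10 h against 6 h and 23 to 47 for the 24 h effect minus the 6 h effect (47 without untreated 0 h replicate 3).

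Replicate numbers were not taken as pairs: of 108 pairs of libraries with the same number in different groups, 35 had deviations correlated above 0.1. With the number as a replicate block, 8 members changed at 24 h. The replicate block with the GC and length correction gave 12 at 2 h, 12 at 24 h, 2 in untreated cells at 24 h and 47 for 10 h against 6 h. FPKM gives no depth, so the smallest change each gene's reads could show is unknown.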
